A study of Homo sapiens with 6 samples.

Results

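The genes described here are the RIP kinases other than RIPK2 together with the receptors, adaptors, proteases and effectors with which they assemble: RIPK1, RIPK3, RIPK4, MLKL, CASP8, FADD, CFLAR, TRADD, TNFRSF1A and TNFRSF10B. They were chosen by name, and all 10 were found among the 20263 genes of the deposited count table. The study asked what knockdown of RIPK2 does to U118, an established human malignant glioma line that the labels call an astroblastoma. Poly(A) RNA was sequenced from libraries that were all labelled day 2. After siRNA transfection, 4 were of RIPK2 knockdown cells (siRIPK2_1 to siRIPK2_4) and 1 was of cells that received a control siRNA (siNC). The remaining 1 was of wild-type cells (WT). All groups came from this single line, grown in the same medium. What distinguishes siRIPK2_1 from siRIPK2_2, siRIPK2_3 and siRIPK2_4 (the siRNA, the culture or only the transfection) is not stated, so their spread may be technical. In the comparisons with siNC or WT alone, p-values reflect only that spread. In the comparison with both controls together, the difference between siNC and WT also enters the spread.

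Death receptors of the TNF receptor family signal through cytoplasmic death domains. TNF receptor 1 recruits the adaptor TRADD and the kinase RIPK1 into a membrane complex that drives NF-kB. TRAIL receptors and Fas instead recruit FADD directly and, through it, caspase-8. Caspase-8 then starts apoptosis and cleaves RIPK1 and RIPK3, and its catalytically inactive relative c-FLIP, the product of CFLAR, tunes that activity. When caspase-8 is blocked, RIPK1 and RIPK3 can join through their RHIM motifs, and RIPK3 phosphorylates MLKL, which breaks the plasma membrane in necroptosis. RIPK2 shares the kinase fold of this family but acts behind the NOD receptors through its CARD domain.

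Because regulation by NF-kB and interferon is well known for several of these genes, the RefSeq promoter windows (GRCh38.p14, 250 bases before to 50 after each annotated start) were searched on both strands for the NF-kB consensus and for a pair of GAAA blocks spaced by any 2 bases, the core of an interferon-stimulated response element. Windows were found for 6 of the 10 genes (CASP8, CFLAR, FADD, MLKL, RIPK1 and TNFRSF1A). The 3 matches are shown with 10 bases on either side, 5′ to 3′ on the strand of the gene, the match in capitals.
CFLAR, chr2:201118609-201118638, NF-kB consensus: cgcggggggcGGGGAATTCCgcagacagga
CASP8, chr2:201233450-201233479, paired GAAA on the opposite strand: gagtttttggTTTCTGTTTCaccttgtgtc
RIPK1, chr6:3068301-3068330, paired GAAA on the opposite strand: cgcgcggaggTTTCGGTTTCctcttttacg
The CFLAR match lies at -97 to -88 from an annotated start inside the gene and the CASP8 match at -3 to 7. The RIPK1 match falls in the windows of a pair of alternative starts, at -67 to -58 of one and -183 to -174 of the other. Of all 35116 windows of this length, 11.3% hold the NF-kB consensus and 3.57% hold the paired GAAA blocks. Counted by gene these are 13.3% and 4.38% of 27305 genes, beside 1 and 2 of the 6 genes here, which have 13 windows. The FADD, MLKL and TNFRSF1A windows hold neither. These matches describe the letters only, and no binding was measured here.

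Library totals ranged from 33540619 to 45309423 counts. RIPK2 itself was at 56.8 CPM (counts scaled to a common library size with edgeR's TMM factors) in WT and 43.4 in siNC. The 4 knockdown libraries had 3.86, 11.9, 6.27 and 4.32 CPM, all below both controls, which checks the labels. Even this log2 difference of -2.72 against siNC (SE 0.53, unadjusted p = 0.000946) had an adjusted p of 0.972 in edgeR. Of 10 astrocyte and glioma markers, 5 had a mean of at least 1 CPM. VIM, an intermediate filament gene of mesenchymal and glial cells, was between 3813 and 7572 CPM, whereas the astrocyte filament gene GFAP was between 0.532 and 1.09 CPM and S100B and AQP4 had at most 2 and 0 counts in a library. Among macrophage and microglia markers, AIF1, TYROBP and C1QA were at 0 in every library, 2 of 8 had a mean of at least 1 CPM, and the summed level was 167 CPM in WT, 95.2 CPM in siNC and 108 to 149 CPM in siRIPK2. CD68, a lysosomal protein gene that many cell types express, made up most of that sum, with 164 CPM in WT, 91.1 CPM in siNC and 104 to 147 CPM in siRIPK2. The other marker with a mean of at least 1 CPM, CSF1R, was between 1.18 and 3.69 CPM over the libraries. The summed level of the astrocyte and glioma list was 7094 CPM in WT, 8206 CPM in siNC and 4347 to 7799 CPM in siRIPK2. VIM made up most of that sum, with 6477 CPM in WT and 7572 CPM in siNC. The other expressed markers of the list did not share 1 direction. From WT to siNC, CD44 went from 475 to 556 CPM and SLC1A3 from 6.33 to 11.2 CPM, whereas SOX9 went from 66.1 to 47.5 CPM and NES from 69.1 to 18.5 CPM. In siRIPK2, SOX9 was at 48.2 to 122 CPM and NES at 19.5 to 73.1 CPM. The part of either list in the results was not tested. In these bulk libraries, fewer cells that express a gene and less RNA per cell cannot be told apart.

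**Figure D1:**
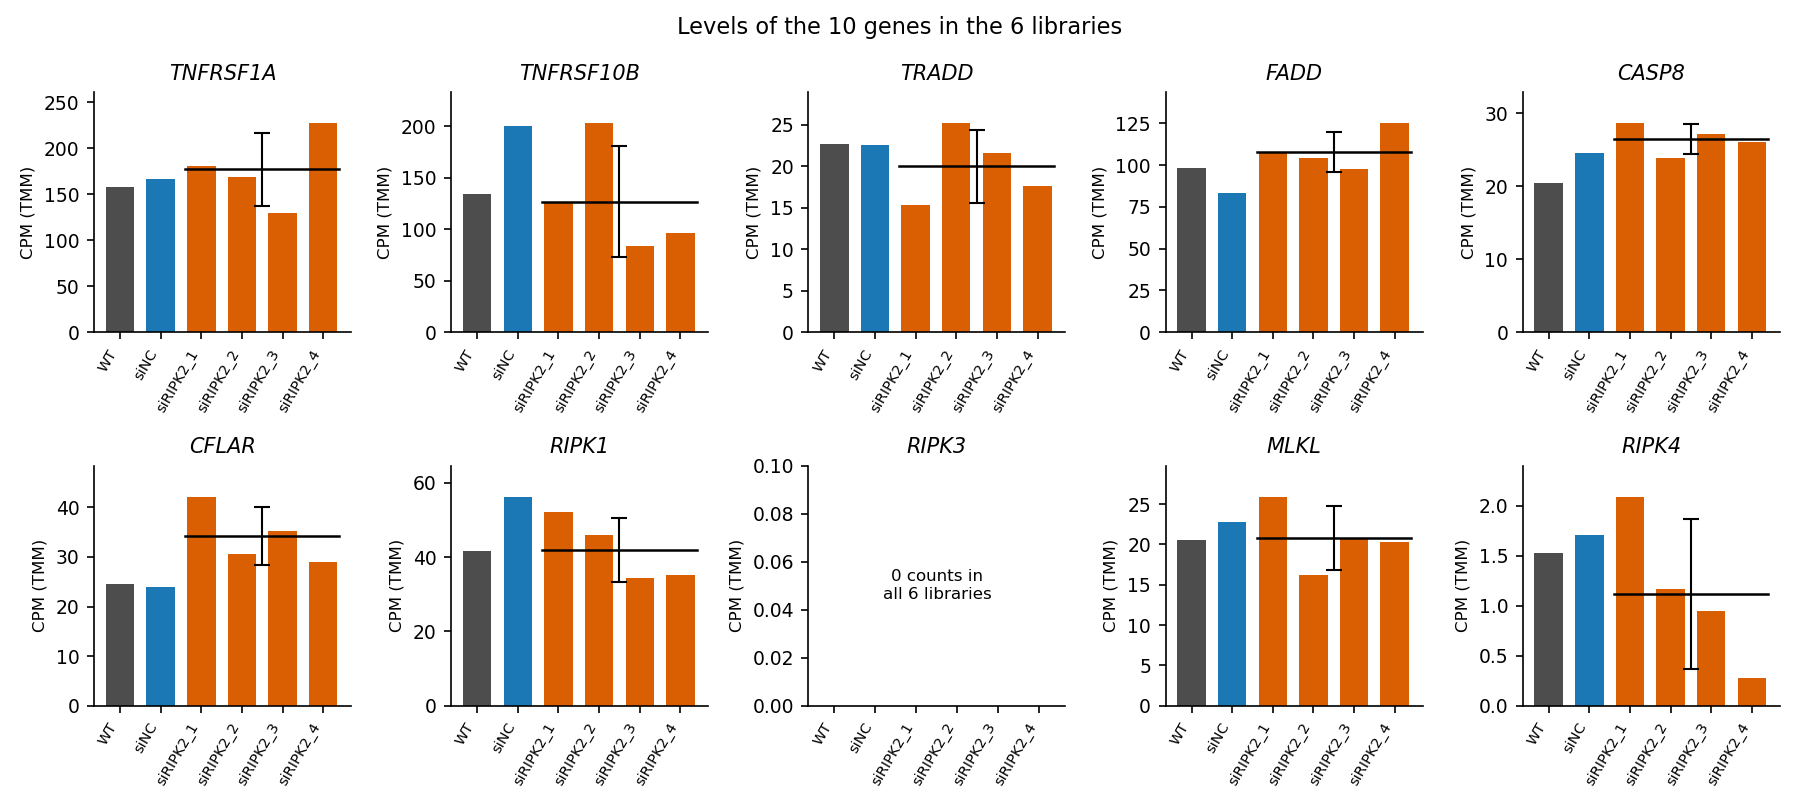
Level of each of the 10 genes in CPM (TMM factors) in the 6 libraries, 1 bar per library (WT grey, siNC blue, siRIPK2 orange), with the siRIPK2 mean as a line and its SD (n = 4) as a bar. RIPK3 is at 0 throughout, CFLAR is above both controls in each of the 4 siRIPK2 bars, and RIPK4 falls to 0.275 CPM in siRIPK2_4.

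The apparatus of TNF and TRAIL receptor signalling was transcribed in every library, but the kinase that commits cells to necroptosis was not detected. RIPK3 (ENSG00000129465, chromosome 14, 24336021 to 24340045, minus strand, GRCh38) had 0 counts in all 6 libraries. Against 230112724 counts in total, that allows a level of up to 0.013 CPM over the libraries together, taking 3 counts as the limit and counting error only. Of the 20263 genes, 3083 (15.2%) were likewise at 0 throughout. Exons of 1 other listed gene, itself at 0 in every library, cover 11.0% of the RIPK3 exons.

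Per length of the principal transcript, the other 9 genes spanned a wide range. TNFRSF1A led at a mean of 77.3 CPM per kb over the 6 libraries (SD 14.4), followed by FADD at 55.6 (SD 7.57) and TNFRSF10B at 33.9 (SD 12.2). CASP8 had 15.4 CPM per kb (SD 1.78), TRADD 11.1 (SD 1.94), RIPK1 10.6 (SD 2.14) and MLKL 8.36 (SD 1.27). CFLAR stood at 2.11 CPM per kb (SD 0.469) and RIPK4 at 0.331 (SD 0.164). The lowest library of TNFRSF10B was above the highest of CASP8, and the same held between MLKL and CFLAR and between CFLAR and RIPK4. Ranges of the other neighbours overlapped, and TRADD exceeded RIPK1 in only 4 of 6 libraries. This order depends on the transcript taken as the length. With all annotated exons, FADD ranked above TNFRSF1A, and CASP8, whose exons sum to 7.24 kb against 1.63 kb of its principal transcript, moved from rank 4 to rank 7. CFLAR, with a principal transcript of 14.7 kb, stayed at rank 8. Without division by length, its mean of 30.9 CPM was above those of CASP8 (25.1 CPM) and MLKL (21.1 CPM).

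**Figure D2:**
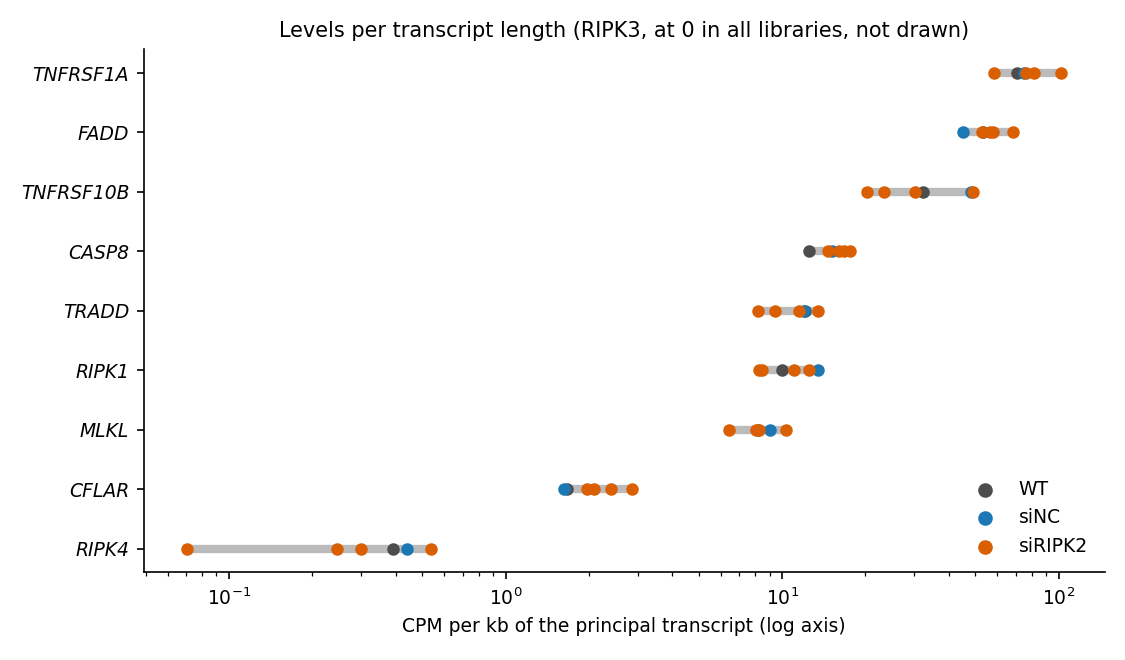
Level per kb of the principal transcript on a log axis for the 9 genes with counts, 1 point per library and a grey bar from the lowest to the highest. TNFRSF1A and FADD lie highest and RIPK4 lowest, with siRIPK2_4 as its leftmost point.

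No difference of these genes between knockdown and control passed the test. Of the 9 genes that passed the filter on low counts, 0 passed edgeR's quasi-likelihood test with Benjamini-Hochberg adjustment over 14306 genes against siNC, where 0.0% of all genes passed. None of the 9 had an unadjusted p under 0.05 either, against 4.77% of all genes. RIPK3, with no counts, could not be tested. In the fit, 4 of the 9 were higher and 5 lower than in siNC, with a median log2 fold change of -0.13, whereas 51.7% of all genes were higher and their median was 0.02. Every adjusted p of the 9 was 1 in edgeR. The intervals are wide, so these tests do not show that the levels were equal: the narrowest 95% interval against siNC, that of FADD, runs from 0.81-fold to 2.1-fold.

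CFLAR (ENSG00000003402, chromosome 2, 201116104 to 201176687, plus strand) was the 1 gene of the 9 with all 4 siRIPK2 libraries above both controls, a pattern seen in 4.96% of all genes tested. WT cells had 24.6 CPM and siNC cells 24.0 CPM. In siRIPK2_1 to siRIPK2_4 it was 42.1, 30.5, 35.3 and 28.9 CPM. The controls thus differed little from each other, and the lowest knockdown library exceeded both of them. The knockdown mean of 34.2 ± 5.91 CPM (SD, n = 4) was 143% of siNC and 139% of WT. On the log2 scale the difference was 0.51 against siNC (SE 0.35, unadjusted p = 0.179 in edgeR, adjusted p = 1) and 0.48 against WT (SE 0.35, unadjusted p = 0.205 in edgeR). Set against both controls together it was 0.50 (SE 0.24, unadjusted p = 0.0691 in edgeR, adjusted p = 1), and the 95% interval ran from 0.967-fold to 2.06-fold. Without siRIPK2_1, the highest library, the value against siNC was 0.38.

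CASP8 (chromosome 2, 201233443 to 201287711, plus strand), the initiator protease that c-FLIP restrains, varied least. It was at 20.4 CPM in WT, 24.6 CPM in siNC and 28.6, 23.8, 27.2 and 26.0 CPM in siRIPK2_1 to siRIPK2_4. All 4 knockdown libraries lay above WT, as in 11.5% of all genes, but siRIPK2_2 was below siNC. The coefficient of variation among the 4 siRIPK2 libraries was 7.82%, against a median of 21.8% for the 10674 genes with a mean of at least 5 CPM. The log2 difference was 0.10 against siNC (SE 0.31, unadjusted p = 0.752 in edgeR), and 0.04 without siRIPK2_1. Against WT it was 0.37 (SE 0.31, unadjusted p = 0.271 in edgeR). CFLAR, CASP10 and CASP8 lie next to each other in this order on chromosome 2 and all encode death effector domains. CASP10, a caspase close to caspase-8, was between 0.916 and 1.37 CPM, with log2 differences of -0.19 against siNC and 0.39 against WT.

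The ratio of CFLAR to CASP8, each per kb, was 0.134 in the WT library and 0.108 in the siNC library, and siRIPK2_1 to siRIPK2_4 gave 0.163, 0.143, 0.144 and 0.123. It was lowest in siNC, and siRIPK2_4 lay between the controls. Its absolute size depends on the transcript lengths used, its order among libraries does not. The ratio was chosen after the levels were seen and is given without a test.

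FADD (chromosome 11, 70203163 to 70207390, plus strand), the adaptor that brings caspase-8 to the receptors, was at 98.0 CPM in WT and 83.1 CPM in siNC. The knockdown libraries had 107, 104, 97.5 and 125 CPM. All 4 were above siNC, as were those of 19.3% of all genes, and the library of the control siRNA was the lowest of the 6. FADD and CFLAR were the 2 genes of the 9 with that pattern against siNC. The log2 difference of FADD was 0.38 against siNC (SE 0.30, unadjusted p = 0.234 in edgeR) and 0.15 against WT (SE 0.29, unadjusted p = 0.631 in edgeR). TRADD (chromosome 16, 67154180 to 67160298, minus strand), the adaptor of TNF receptor 1, was at 22.7 CPM in WT, 22.6 CPM in siNC and 15.4, 25.2, 21.6 and 17.7 CPM in siRIPK2_1 to siRIPK2_4. The groups overlapped, since siRIPK2_2 held the highest TRADD level of all libraries and siRIPK2_1 the lowest. Its log2 difference against siNC was -0.18 (SE 0.37, unadjusted p = 0.646 in edgeR), with -0.08 without siRIPK2_1 and -0.31 without siRIPK2_2. Exons of FBXL8, on the opposite strand, overlap 4.91% of the TRADD exons, and the strand setting of the counting is not given in the sources used here.

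The receptors were among the most abundant of these transcripts. TNFRSF1A (chromosome 12, 6328757 to 6342114, minus strand), which encodes TNF receptor 1, was at 158 CPM in WT and 166 CPM in siNC. Levels in siRIPK2_1 to siRIPK2_4 were 181, 169, 130 and 227 CPM, so that siRIPK2_3 lay below both controls and the other 3 above. The log2 difference was 0.09 against siNC (SE 0.35, unadjusted p = 0.805 in edgeR), with -0.05 without siRIPK2_4 and 0.21 without siRIPK2_3. TNFRSF10B (chromosome 8, 23020133 to 23069179, minus strand), which encodes the TRAIL receptor DR5, was at 134 CPM in WT, 200 CPM in siNC and 126, 203, 83.9 and 96.8 CPM in siRIPK2_1 to siRIPK2_4. The highest value came from siRIPK2_2, just above siNC, and the other 3 knockdown libraries were below both controls. Its log2 difference against siNC was -0.65 (SE 0.46, unadjusted p = 0.196 in edgeR), and -0.97 without siRIPK2_2. Against WT it was -0.07 (SE 0.48, unadjusted p = 0.881 in edgeR), with 0.08 without siRIPK2_3 and 0.04 without siRIPK2_4. Its coefficient of variation of 42.0% was the largest among the 9 after that of RIPK4.

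The neighbouring TRAIL receptor genes on chromosome 8 were far lower. TNFRSF10A, which encodes the other signalling receptor DR4, was between 2.64 and 3.75 CPM. Per kb, TNFRSF10B exceeded TNFRSF10A 23.4-fold in WT, 40.0-fold in siNC and between 15.6-fold and 37.5-fold in the knockdown libraries. The decoy receptor gene TNFRSF10C was between 1.05 and 1.31 CPM, and TNFRSF10D had at most 2 counts in a library. The 4 genes resemble each other in sequence, and how reads that match several of them were counted is not given in the sources used here.

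RIPK1 (ENSG00000137275, chromosome 6, 3063991 to 3115187, plus strand), the kinase shared by the survival and death complexes, was at 41.6 CPM in WT and 56.2 CPM in siNC. Levels in siRIPK2_1 to siRIPK2_4 were 52.2, 45.9, 34.3 and 35.3 CPM. All 4 knockdown libraries were below siNC, as in 17.3% of all genes, and RIPK1 was the 1 gene of the 9 with that pattern. They fell on both sides of WT, with siRIPK2_1 and siRIPK2_2 above it. The log2 difference was -0.42 against siNC (SE 0.34, unadjusted p = 0.246 in edgeR) and 0.01 against WT (SE 0.35, unadjusted p = 0.975 in edgeR). The siNC library stood 0.43 above WT (SE 0.44, unadjusted p = 0.352 in edgeR). No gene of the 9 had all 4 knockdown libraries below WT or below both controls, patterns found in 12.8% and 5.5% of all genes.

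MLKL (chromosome 16, 74671855 to 74700960, minus strand), the membrane-breaking effector of necroptosis, was present where RIPK3 was not detected. It was at 20.6 CPM in WT, 22.8 CPM in siNC and 25.9, 16.2, 20.8 and 20.3 CPM in siRIPK2_1 to siRIPK2_4. The controls lay inside the range of the knockdown libraries. The log2 difference was -0.13 against siNC (SE 0.36, unadjusted p = 0.721 in edgeR), with -0.27 without siRIPK2_1 and -0.03 without siRIPK2_2. Against WT it was 0.01 (SE 0.36, unadjusted p = 0.974 in edgeR).

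RIPK4 (chromosome 21, 41739369 to 41767106, minus strand), a kinase of epithelial differentiation with ankyrin repeats, was low and the most variable of the 9. WT and siNC each had 55 counts, and siRIPK2_1 to siRIPK2_4 had 83, 48, 43 and 10. In CPM these were 1.53, 1.71, 2.09, 1.17, 0.952 and 0.275. The exact Poisson 95% interval, for counting error only, was 0.132 to 0.506 CPM in siRIPK2_4 and 1.67 to 2.60 CPM in siRIPK2_1, so these libraries of the same group differed 7.61-fold and beyond counting error. The log2 difference against siNC was -0.61 (SE 0.88, unadjusted p = 0.511 in edgeR). It was -0.29 without siRIPK2_4 and -1.11 without siRIPK2_1. Against WT it was -0.44 (SE 0.89, unadjusted p = 0.634 in edgeR), with -0.12 and -0.93 without these libraries. Of the 6 epithelial markers, KRT5 and KRT8 were also lowest in siRIPK2_4, at 0.413 and 3.36 CPM, whereas KRT14 was lowest in siRIPK2_1 (0.959 CPM) and KRT18 in WT (0.416 CPM). EPCAM and CDH1 had at most 7 and 3 counts. The summed level of the epithelial list was 8.41 CPM in WT, 8.76 CPM in siNC and 5.45 to 13.0 CPM in siRIPK2. Their part in the RIPK4 values was not tested.

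**Figure D3:**
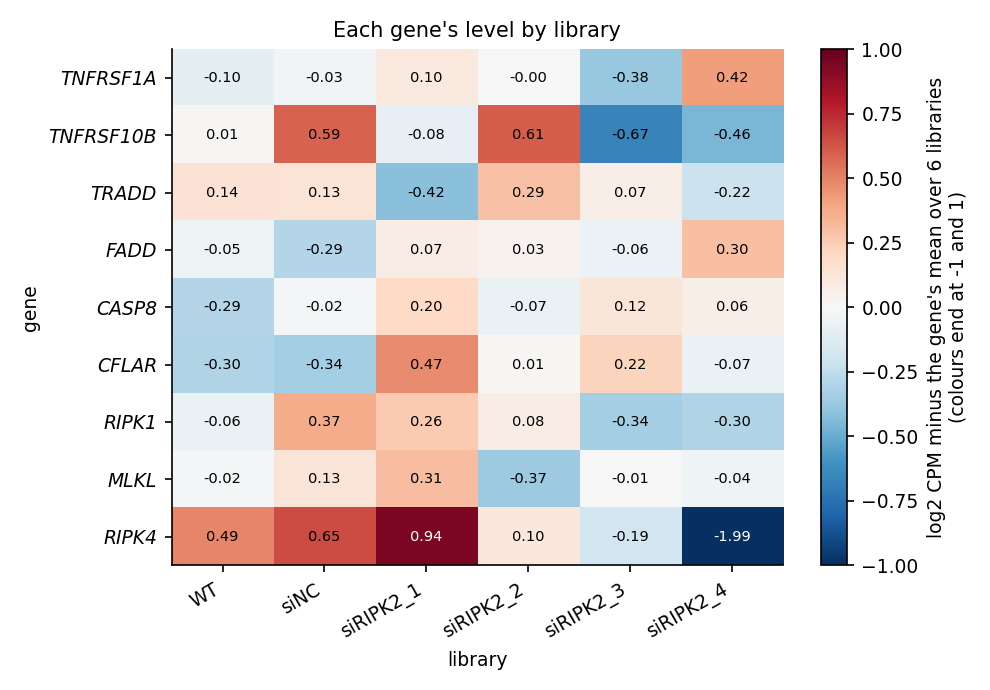
Level of each of the 9 genes in each library as log2 CPM minus the mean of the gene over the 6 libraries, with the value printed in each cell and colours ending at -1 and 1. TNFRSF10B is high in siNC and siRIPK2_2, the CFLAR row is low in both controls, and RIPK4 in siRIPK2_4 is the darkest cell at -1.99.

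Within the knockdown group no library was extreme for all genes. The siRIPK2_1 library held the highest level of RIPK4, MLKL, CASP8 and CFLAR and the lowest of TRADD. RIPK1, TNFRSF1A and TNFRSF10B were each lowest in siRIPK2_3. The library with most residual RIPK2, siRIPK2_2, was highest in TRADD and TNFRSF10B and lowest in MLKL. The median coefficient of variation of the 9 genes, 20.6%, was near that of all genes with at least 5 CPM.

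**Figure D4:**
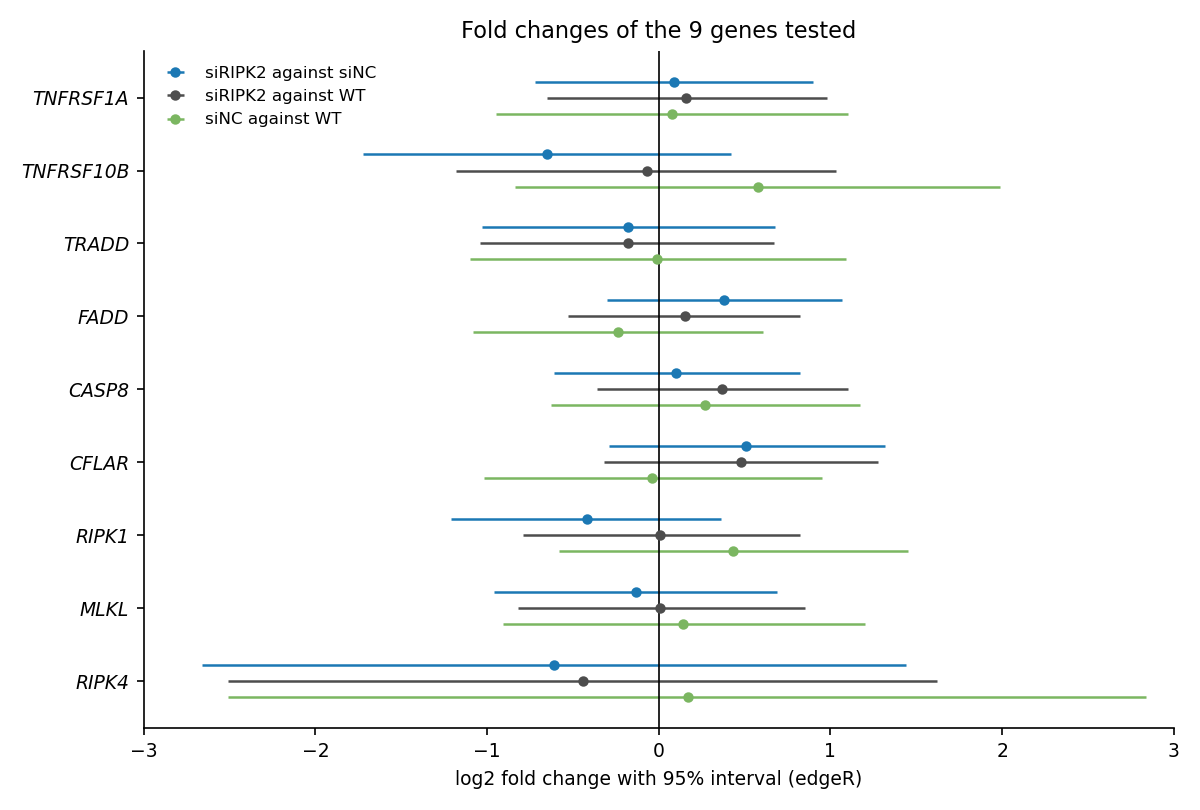
log2 fold changes with 95% intervals from edgeR for the 9 genes tested, siRIPK2 against siNC (blue), siRIPK2 against WT (grey) and siNC against WT (green). Every interval includes 0, and those of RIPK4 are the widest.

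The control siRNA was then set against wild-type cells, and the knockdown against WT and against both controls. With 1 library each, an effect of transfection in siNC cannot be told apart from other differences between the 2 control libraries. The 3 comparisons share libraries, so their values stand side by side without a test between them. For siNC against WT, 0 of 9 genes passed in edgeR (0.0% of all genes), and 0 had an unadjusted p under 0.05, against 2.73% of all genes. There 6 of the 9 were higher, against 49.6% of all genes, led by TNFRSF10B at 0.58 (SE 0.61) and RIPK1 at 0.43 (SE 0.44). For siRIPK2 against WT, 6 of the 9 were higher, against 51.9% of all genes. Again 0 of 9 passed in edgeR (0.0% of all genes), and 0 had an unadjusted p under 0.05 (1.08% of all genes). Against both controls 0 of 9 passed (0.0% of 13901 genes), and 0 had an unadjusted p under 0.05 (2.55%), with CFLAR the nearest.

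The wider pathway was read from a list of 62 further genes in 6 roles, of which 56 could be tested. Against siNC, 23 were higher and 33 lower, where 51.7% of all genes were higher. Their median log2 fold change was -0.06 against 0.02 for all genes, and 0 passed edgeR's adjusted threshold. Against WT, 38 were higher and 18 lower, where 51.9% of all genes were higher, with a median of 0.16 against 0.01. At an unadjusted p under 0.05 in edgeR, 2 were higher and 2 lower than in siNC. There 4.77% of all genes passed in either direction, most of them higher. Against WT 0 passed, where 1.08% of all genes did.

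Ligands were scarce. TNF, LTA and FASLG had at most 3, 4 and 2 counts in a library, values named here after they were seen. TNFSF10, which encodes TRAIL, was at 0.222 CPM in WT, 0.187 CPM in siNC and 0.177 to 0.858 CPM in siRIPK2, and both controls lay inside that range. TNFSF15, which encodes TL1A, had the most counts of the 5 ligands, at 0.555 CPM in WT, 1.53 CPM in siNC and 0 to 1.97 CPM in siRIPK2. Among the other receptors, 4 of 9 tested were higher and 5 lower than in siNC (51.7% of all genes higher). Of the same 9, 6 were higher and 3 lower than in WT (51.9% of all genes higher). FAS, the Fas receptor gene, was at 21.8 CPM in WT, 15.7 CPM in siNC and 34.9, 26.6, 30.3 and 41.3 CPM in siRIPK2_1 to siRIPK2_4. All 4 knockdown libraries exceeded both controls, as in 4.96% of all genes, and the log2 difference against siNC was 1.08 (SE 0.38, unadjusted p = 0.0215 and adjusted p = 0.972 in edgeR). Against WT it was 0.61 (SE 0.36, unadjusted p = 0.134 in edgeR). Exons of other listed genes overlap 8.93% of the FAS exons. TNFRSF1B, which encodes TNF receptor 2, was at 21.2 CPM in WT, 46.3 CPM in siNC and 28.4 ± 8.03 CPM (SD, n = 4) in siRIPK2. TNFRSF21, the gene of death receptor 6, was at 54.5 CPM in WT and 48.8 CPM in siNC against 79.7 ± 38.9 CPM in siRIPK2. Its knockdown libraries had 121, 92.8, 28.2 and 76.7 CPM, so siRIPK2_3 lay below both controls. The log2 difference against siNC was 0.71 (SE 0.68, unadjusted p = 0.329 in edgeR).

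The list of ubiquitin machinery of the TNF receptor complex also holds kinases, TBK1 among them. It had 6 members higher and 14 lower than in siNC, against 51.7% of all genes higher, with a median of -0.21. Against WT 13 were higher and 7 lower, against 51.9% of all genes higher, with a median of 0.12. In siNC against WT, 15 of the 20 were higher, against 49.6% of all genes. Of the 20 members, 2 had an unadjusted p under 0.05 in edgeR against siNC. There 4.77% of all genes did in either direction, most of them higher. These 2, BIRC3 and TNFAIP3, were lower than in siNC, and both are known NF-kB targets and regulators. BIRC3, a ubiquitin ligase, was at 13.0 CPM in WT, 45.3 CPM in siNC and 20.5 ± 4.88 CPM in siRIPK2, a log2 difference of -1.14 against siNC (SE 0.35, unadjusted p = 0.0123 and adjusted p = 0.972 in edgeR). TNFAIP3, the deubiquitinase A20, was at 56.6 CPM in WT, 137 CPM in siNC and 70.3 ± 15.2 CPM in siRIPK2 (log2 difference -0.96, SE 0.32, unadjusted p = 0.0175 in edgeR). Against WT both were higher in the fit, by 0.65 (SE 0.40, unadjusted p = 0.141 in edgeR) for BIRC3 and 0.31 (SE 0.35, unadjusted p = 0.399 in edgeR) for TNFAIP3. In siNC against WT, BIRC3 stood at 1.80 (SE 0.49, unadjusted p = 0.00701, adjusted p = 1 in edgeR) and TNFAIP3 at 1.28 (SE 0.44, unadjusted p = 0.0203, adjusted p = 1 in edgeR). Both genes were highest in the siNC library, which was also the highest for RIPK1 and, after siRIPK2_2, for TNFRSF10B, but the lowest for CFLAR. Whether the siNC level of these transcripts affects the RIPK1 and TNFRSF10B differences was not tested. TBK1, a kinase that phosphorylates RIPK1, was at 32.3 CPM in WT and 22.1 CPM in siNC against 35.9 ± 8.22 CPM.

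In the fit, 51.7% of all genes were higher than in siNC and 51.9% higher than in WT. Among caspases and their regulators 4 of 12 were higher than in siNC, with a median of -0.09. Against WT 8 of 12 were higher, with a median of 0.17. CASP6 was at 11.5 CPM in WT, 6.05 CPM in siNC and 10.8 ± 2.24 CPM in siRIPK2. BID, the substrate by which caspase-8 engages mitochondria, was at 44.9 CPM in WT, 80.0 CPM in siNC and 57.9 ± 10.9 CPM. Of the necroptosis partners 6 of 10 were higher than in siNC, with a median of 0.10, and 7 of 10 higher than in WT, with a median of 0.25. ZBP1, a nucleic acid sensor that also carries RHIM motifs, had at most 6 counts in a library. TICAM1, the RHIM adaptor of TLR3 and TLR4, was at 48.6, 57.5 and 64.6 ± 7.99 CPM in WT, siNC and siRIPK2. PELI1, a ubiquitin ligase, was at 4.05, 2.74 and 5.32 ± 1.30 CPM, and NINJ1, which acts in plasma membrane rupture, at 27.7, 39.2 and 31.1 ± 6.09 CPM. Of the other RIP family kinases, LRRK2 was at 8.44 CPM in WT, 4.33 CPM in siNC and 10.2 ± 2.64 CPM in siRIPK2, a log2 difference of 1.23 against siNC (SE 0.48, unadjusted p = 0.0336 and adjusted p = 1 in edgeR). DSTYK was at 29.4, 27.7 and 22.7 ± 8.43 CPM.

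**Figure D5:**
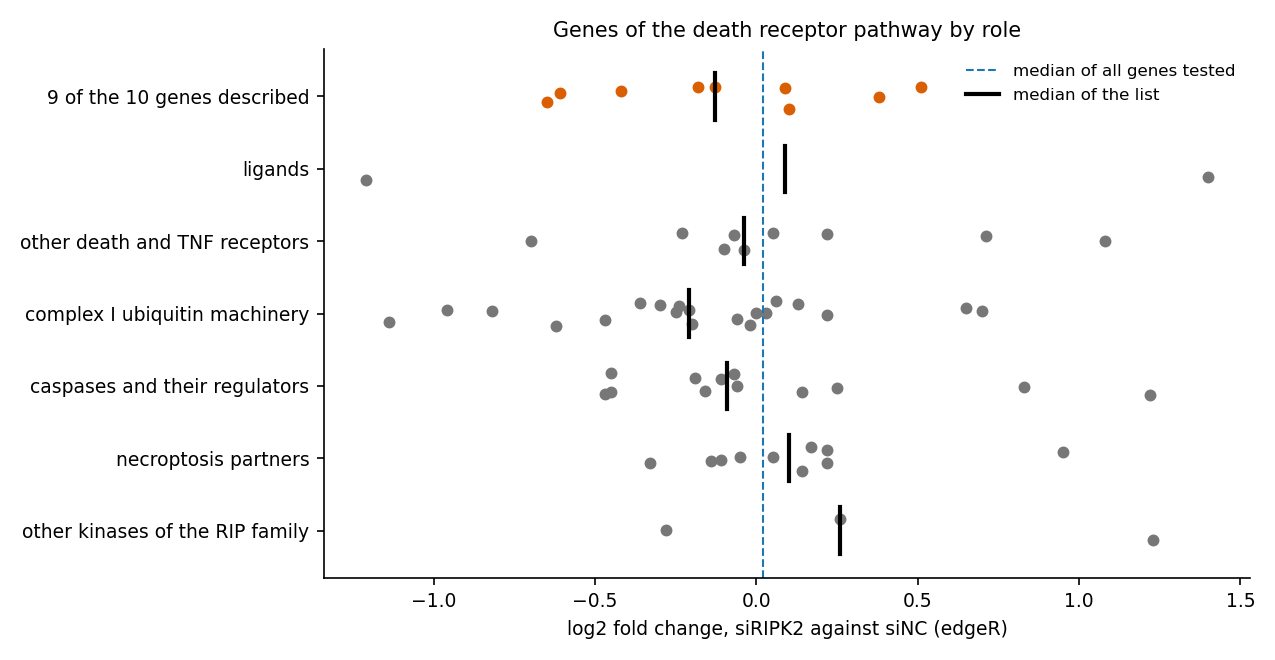
log2 fold change of siRIPK2 against siNC for the 9 genes tested (orange) and for 56 further pathway genes by role (grey), with each list's median as a black line and the median of all genes as a dashed line. The genes described lie between -0.65 and 0.51, and the list medians between -0.21 and 0.26.

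The genes closest in pattern were sought for the 3 members with the widest range over the libraries among those with a mean of at least 5 CPM. Likeness was the root mean square difference of profiles in log2(CPM + 1), each centred on the mean of its gene, over 6 libraries and 10654 other genes. TNFRSF10B was nearest to FPR1 (0.0867), P4HA2 (0.106) and CA13 (0.106), against a median of 0.559 over all genes. For TNFRSF1A the nearest were TMEM87B (0.0592), GDI2 (0.0601) and LRFN4 (0.0676), with a median of 0.367. CFLAR was nearest to TLE1 (0.0465), KLHL28 (0.0589) and ACVR2A (0.0626), with a median of 0.384. TLE1 was at 102 and 91.8 CPM in WT and siNC and at 166, 120, 132 and 111 CPM in siRIPK2_1 to siRIPK2_4, the order that CFLAR shows. Likeness over 6 libraries is given as a description, without a test.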

How the data were processed

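Raw counts by Ensembl gene, deposited by the authors for 6 libraries, were used as they stand. The submitters' processing notes name GRCh38 with HISAT2, Trimmomatic, FastQC and bedtools. Versions, annotation release, strand setting and the treatment of reads with several matches: not given in the sources used here, so reads of overlapping genes cannot be told apart. Symbols were matched for 20148 of 20263 IDs, and GENCODE release 29 (20224 IDs) gave coordinates and lengths. Every pair of libraries differed beyond sampling noise (chi-square per degree of freedom 77.1 to 224), and all were kept.

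The test was the quasi-likelihood F test of edgeR 4.0.16 (R 4.3.3) with TMM factors, after filterByExpr at a count minimum of 10, with Benjamini-Hochberg adjustment over all genes and a threshold of 0.05. A fit with 3 groups (14306 genes, 3 residual degrees of freedom) gave the comparisons with siNC and WT, each lone control being assumed to vary like the siRIPK2 libraries. A fit with 2 groups (13901 genes) joined the controls. DESeq2 1.42.0, limma-voom 3.58.1, other scalings, no filter and leaving out libraries were tried as alternatives. Lengths are those of the longest APPRIS principal transcript.

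The members, lists and naming rule (per role, up to 3 genes of the smallest unadjusted p against siNC among those with a mean of at least 1 CPM; 3 nearest profiles for 3 members) were chosen with earlier results of these data known. Genes named outside the rule are CASP10, TNFRSF10A, TNFRSF10C, TNFRSF10D, TNF, LTA, FASLG, TNFSF10, TNFSF15 and ZBP1. Of the genes the rule names, 1 is not reported here.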

Additional observations from a re-analysis of the deposited data

How the results depend on the processing

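Of 342 values of the 9 genes under the alternatives, 327 kept their direction, 15 reversed and 0 passed the adjusted threshold. Against siNC, TNFRSF1A went to -0.05 without siRIPK2_4 (range 0.06 to 0.21 without another library), and to -0.02 against both controls. Against WT, RIPK1 ranged from -0.12 to 0.10 and MLKL from -0.12 to 0.12 over the left-out libraries, and TNFRSF10B from -0.39 to 0.08. With limma-voom RIPK1 and MLKL were at -0.01, and with upper-quartile factors MLKL was at -0.00048. TRADD in siNC against WT reached 0.00024 with upper-quartile factors and lay between -0.01 and 0.0047 over the left-out libraries. Against both controls, MLKL ranged from -0.19 to 0.04, RIPK1 from -0.43 to 0.02 and TNFRSF1A from -0.02 to 0.25 without single libraries. All of these started within 0.22 of 0. The DESeq2 Wald test called 74 genes against siNC, 9 against WT, 11 for siNC against WT and 11 against both controls, none of them among the 9 genes, where edgeR called 0 in each comparison and had 682, 155, 391 and 355 genes at an unadjusted p under 0.05. Against WT, limma-voom called 1 gene and edgeR without a filter 1. Leaving out single libraries gave 0 to 2 calls against both controls and 0 in the other comparisons. No paired analysis was possible because each control is a single library and the replicate numbers belong to the siRIPK2 libraries alone. RIPK3 had no counts, so its limit rests on depth and on the way reads were counted, which is not given in the sources used here. For the 9 genes tested, the spread between libraries and the lone controls limit the comparisons. For RIPK4, with 10 counts in siRIPK2_4, counting error does so as well.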
